A study of Mus musculus with 17 samples.

Results

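Extracranial tumors and central nervous system (CNS) tumors of the SHH subtype were compared in a mouse model of rhabdoid tumor. The members are the 4 libraries titled as extracranial tumors and the 3 titled as SHH tumors, 7 of 17 libraries in 5 groups, and every gene with enough counts was compared. Both groups were C57BL/6J mice with the genotype SMARCB1 -/-, so by label both groups lack the normal gene. The driver of the deletion, the age of the mice and the body site of the extracranial tumors are not given in the sources used here, nor whether any tumors shared an animal. The other libraries are 4 Myc-subtype CNS tumors, 3 syngeneic grafts and 3 wild-type healthy brains, and messenger RNA was sequenced in all of them.

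SMARCB1 is a core subunit of SWI/SNF, the ATP-driven complex that slides and evicts nucleosomes at enhancers and promoters, and its loss defines rhabdoid tumor, a cancer of infants that arises in the brain, the kidney or soft tissue. Human brain rhabdoid tumors are sorted into subgroups by methylation and expression. The SHH subgroup is known for neural, Notch and Hedgehog pathway genes and MYCN, and the MYC subgroup for MYC and genes of the HOXC cluster. The question of the comparison is how far tumors without the same chromatin subunit differ when they grow outside the skull and when they belong to the neural SHH subtype.

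The extracranial libraries held 22491998 to 52956537 counts and the SHH libraries 35662656 to 71390917. Levels are in CPM, the count of a gene scaled to the size of its library, and follow library order, 1 to 4 for extracranial and 1 to 3 for SHH tumors. Log2 fold changes are extracranial minus SHH and carry their SE, and adjusted p-values are from edgeR's quasi-likelihood test with Benjamini-Hochberg adjustment unless another tool is named. The first principal component of the 7 libraries carried 60.5% of the variance and separated the groups, and the second, with 14%, set Extracranial tumor 3 apart. Over log2 CPM of all genes tested, the median correlation was 0.911 within extracranial and 0.953 within SHH tumors, 0.792 between them, 0.915 between extracranial and Myc tumors and 0.94 between SHH tumors and brain. Smarcb1 itself had 23, 11.3, 7.25 and 19.8 CPM in extracranial tumors, against 33.3, 2.52 and 6.23 CPM in SHH tumors, all under the 132, 121 and 119 CPM of the 3 brains. The test called no difference between the tumor groups (0.13 ± 0.62, adjusted p = 0.882), but without SHH CNS tumor 1, the highest of the 7, extracranial tumors were higher (1.80, adjusted p = 0.0132). Counts per gene do not show which exons were read.

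Some libraries stood apart within their group. SHH CNS tumor 1 held myelin and choroid plexus transcripts, with Mobp, a protein of compact myelin, at 1371, 0.447 and 18.3 CPM and Ttr, the transthyretin made by the choroid plexus, at 1679, 1.2 and 0.804 CPM in the 3 SHH tumors. Extracranial tumor 1 and 2 held the skeletal muscle actin Acta1 (46.8, 35.3, 0.0298 and 1.22 CPM in the 4 extracranial tumors), and Extracranial tumor 4 held a set of genes known from osteoclasts that is described below. Extracranial tumor 3 was the only one of the 7 libraries with Y-linked transcripts. Genes at least 4-fold above each of the other 6 libraries and at 10 CPM or more numbered 132, 83, 153 and 116 in the extracranial tumors, and 272, 17 and 39 in the SHH tumors. By the numbers in their file names the 4 extracranial libraries belong to a series that holds no SHH library, so that series and tumor group cannot be told apart among the 7.

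Of 21494 genes tested, 3991 were higher in extracranial tumors (18.6% of those tested) and 4232 were lower (19.7%). At least 4-fold, 2014 were higher (9.37%) and 3047 lower (14.2%), with a median log2 fold change over all genes of 0.07. Libraries of the groups did not overlap for 3101 of the genes called higher and 3654 of those called lower. With the 7 libraries alone in the fit, 2025 genes were higher and 2560 lower, and with the file number series as a term, which rests on the Myc tumors, 1027 were higher and 1051 lower. Without SHH CNS tumor 1 and Extracranial tumor 4 together, 2541 were higher and 3196 lower.

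**Figure D1:**
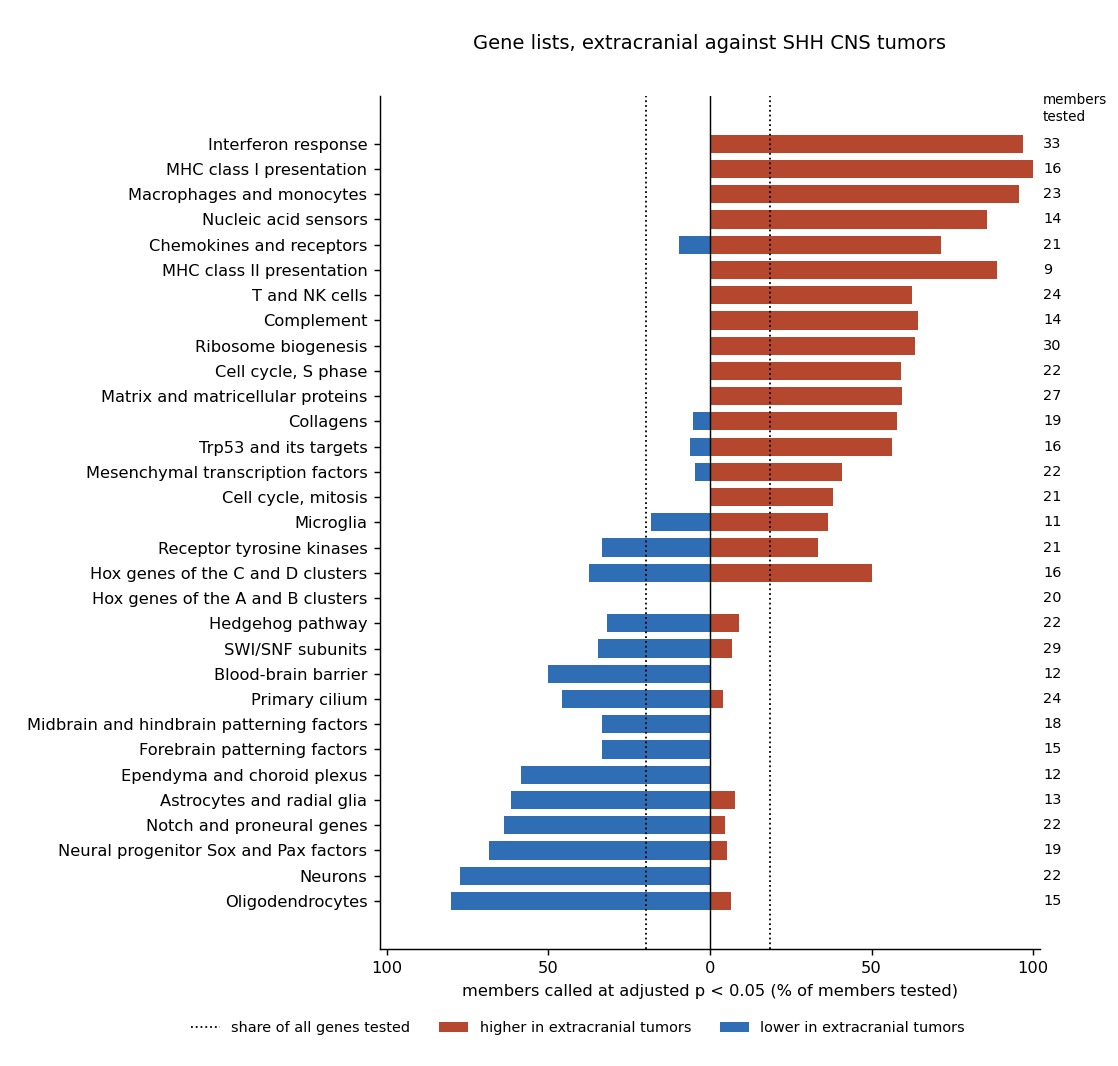
Share of the tested members of each gene list that were called higher (right, red) or lower (left, blue) in extracranial than in SHH tumors at adjusted p under 0.05. Dotted lines mark the shares over all genes tested, 18.6% higher and 19.7% lower, and numbers at the right give the members tested. Most of the immune lists drawn sit at the top with 16 of 16 MHC class I genes and 32 of 33 interferon response genes higher, and lists of the nervous system at the bottom with 17 of 22 neuron genes lower.

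Neural genes were lower in extracranial tumors across several lists. Of 22 genes of neurons, 17 were lower in extracranial tumors and none higher, with a median log2 fold change of -6.09. Their sums were 582, 246, 77.8 and 971 CPM in extracranial tumors, 7450, 4740 and 1250 CPM in SHH tumors and 10900, 12300 and 12600 CPM in the 3 brains. Whether the SHH libraries held normal brain tissue was not tested. Neural progenitor Sox and Pax factors were lower in 13 of 19, and Notch and proneural genes in 14 of 22. In each of these lists the count lies above the 19.7% of all genes. Sox1, a factor that keeps neural progenitors in their state, had 0.0488, 0, 0.0597 and 0.034 CPM in extracranial tumors, against 94.7, 251 and 242 CPM in SHH tumors (-12.53 ± 1.09, adjusted p = 6.82e-06). Sox2, which does so in many stem cells, had 0.0976, 0.0973, 0 and 0.204 CPM in extracranial tumors, against 100.1, 156 and 161 CPM in SHH tumors (-10.44 ± 1.37, adjusted p = 0.000101). No extracranial library came near the lowest SHH library in either gene. Hes5, a Notch effector that keeps neural progenitors from differentiating, had 0, 0.0195, 0.0298 and 0.068 CPM in extracranial tumors, against 18, 31.7 and 58.9 CPM in SHH tumors (-10.15 ± 0.88, adjusted p = 2.34e-05). It was close to 0 in every extracranial tumor.

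Among genes of neurons, the RNA-binding protein Elavl4 had 0.0488, 0.954, 0.179 and 0.136 CPM in extracranial tumors, against 175, 196 and 85.2 CPM in SHH tumors (-8.72 ± 0.79, adjusted p = 9.37e-06). Dcx, the doublecortin of migrating neurons, had 0, 0.428, 0.0895 and 0.17 CPM in extracranial tumors, against 70.0, 101 and 14.4 CPM in SHH tumors (-8.31 ± 1.03, adjusted p = 6.95e-05). Slc32a1, which loads GABA into vesicles, had 0.0488, 0, 0 and 0.034 CPM in extracranial tumors, against 43.6, 61.2 and 7.16 CPM in SHH tumors (-11.03 ± 1.24, adjusted p = 3.61e-05). Glutamatergic and GABAergic markers were both low in extracranial tumors, since Slc17a6, the vesicular glutamate transporter, had 0, 0, 0 and 0.034 CPM in extracranial tumors, against 233, 65 and 5.48 CPM in SHH tumors. The libraries of the 2 groups did not overlap in any of these 4 genes. In bulk RNA, fewer cells of a type and less RNA per cell cannot be told apart.

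A few genes of these lists did not follow. Rbpj, the DNA-binding partner of Notch, was the only Notch list member that rose, with 631, 454, 99.6 and 455 CPM in extracranial tumors, against 50.5, 81.8 and 84 CPM in SHH tumors (2.51 ± 0.46, adjusted p = 0.000956). Vim, the intermediate filament shared by neural progenitors and mesenchyme, had 2974, 6027, 277 and 6690.4 CPM in extracranial tumors, against 608, 993 and 731 CPM in SHH tumors (2.36 ± 0.69, adjusted p = 0.0153, 0.061 without SHH CNS tumor 1), and Extracranial tumor 3 lay below all SHH tumors. The count of Sox and Pax factors called lower was 8 of 19 without SHH CNS tumor 2.

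Glial genes were lower as well, but with unequal SHH tumors. Astrocyte and radial glia genes were lower in 8 of 13, and oligodendrocyte genes in 12 of 15. Gfap, the astrocyte filament, had 0.293, 0.234, 0.239 and 0.272 CPM in extracranial tumors, against 721, 115 and 93.2 CPM in SHH tumors (-10.23 ± 1.6, adjusted p = 0.000324). Fabp7, the fatty acid binding protein of radial glia, had 0.146, 0.0973, 0.0895 and 7.55 CPM in extracranial tumors, against 323, 641 and 411 CPM in SHH tumors (-7.86 ± 1.65, adjusted p = 0.00222, and -12.09 without Extracranial tumor 4, which held nearly all of its counts). Cspg5, a proteoglycan of neural and oligodendrocyte precursor cells, had 0.244, 1.13, 0.358 and 0.714 CPM in extracranial tumors, against 208, 179 and 163 CPM in SHH tumors (-8.18 ± 0.48, adjusted p = 1.57e-06), and the groups were far apart. Myelin genes behaved otherwise. Mobp had 0.0976, 0.0389, 0.0298 and 0.136 CPM in extracranial tumors, against 1371, 0.447 and 18.3 CPM in SHH tumors, so SHH CNS tumor 1 held nearly all of it, and its log2 fold change was -12.66 ± 2.54 with that library and -6.99 without. For Ttr it was -18.10 ± 4.14 with that library and -9.0 without. Mbp, myelin basic protein, was called lower (-4.36 ± 1.42, adjusted p = 0.0263) and was not without that library (0.51, adjusted p = 0.739) or without Extracranial tumor 2 (0.0522) or 4 (0.054). Without it, 6 of the 15 oligodendrocyte genes were called lower, and with Extracranial tumor 4 left out too, 5 of the 13 astrocyte genes were.

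The 15 largest decreases with at least 10 CPM in SHH tumors and no overlap were Ttr, Sox1ot, Sox2ot, Olig1, Cnpy1, Rfx4, Nkx2-3, Slc17a6, Ttc9b, Sox10, Olig3, Resp18, Cplx1, Mobp and Sox1. Several had no count at all in the 4 extracranial libraries. Against a floor of 3 counts over the group, Sox1ot, a transcript that overlaps Sox1, was at least 7580-fold lower in extracranial tumors, Sox2ot, which overlaps Sox2, at least 2630-fold, and Nkx2-3, a homeobox factor, at least 1290-fold. Reads of an overlapping transcript and its host gene may not be fully separated, so the values of these 2 transcripts are uncertain. Cnpy1, a gene of the midbrain and hindbrain boundary in zebrafish, had 0.0488, 0.0195, 0 and 0 CPM in extracranial tumors, against 160.4, 267 and 505 CPM in SHH tumors (-14.17 ± 1.53, adjusted p = 2.76e-05). Rfx4, a ciliogenic factor of the neural tube, had 0, 0, 0.0298 and 0 CPM in extracranial tumors, against 66.9, 132 and 227 CPM in SHH tumors (-13.87 ± 1.53, adjusted p = 3.14e-05). In 7 of the 15 genes, over 75% of the SHH total lay in 1 library.

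Genes that mark regions of the brain were called lower in part. Of 15 forebrain factors 5 were lower, and of 18 midbrain and hindbrain factors 6, with none higher, beside 19.7% of all genes called lower. The other 10 and 12 factors were not called. Otx2, a head organizer factor of forebrain and midbrain, had 0.0488, 0, 0.776 and 0.034 CPM in extracranial tumors, against 94.5, 92 and 199 CPM in SHH tumors (-9.20 ± 1.40, adjusted p = 0.000269). En2, a factor of the midbrain and cerebellum, had 0.293, 0.0195, 0.0895 and 0 CPM in extracranial tumors, against 43.7, 85.2 and 149.5 CPM in SHH tumors (-10.05 ± 1.47, adjusted p = 0.000204). SHH tumors carried both transcripts, and extracranial tumors carried little of either. Zic1, a factor of dorsal neural tube and somites, had 22.3, 0.0973, 34.9 and 0.17 CPM in extracranial tumors, against 298, 210.0 and 447 CPM in SHH tumors (-4.47 ± 1.32, adjusted p = 0.0159), so Extracranial tumor 1 and 3 held some of it and the other 2 almost none.

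The Hox genes, which record position along the trunk, gave the opposite picture and split by cluster. All 8 tested genes of the C cluster were higher in extracranial tumors, none of the 8 of the D cluster was higher and 6 were lower, and none of the 20 of the A and B clusters was called. Hoxc8 had 76, 16.7, 53.8 and 120.5 CPM in extracranial tumors, against 0.206, 0.094 and 0.17 CPM in SHH tumors (8.71 ± 1.04, adjusted p = 5.26e-05). Hoxc6 had 69.5, 14, 41.6 and 41.3 CPM in extracranial tumors, against 0.103, 0.188 and 0.34 CPM in SHH tumors (7.57 ± 0.98, adjusted p = 9.33e-05). Every extracranial library lay above every SHH library in both, and SHH tumors were near 0. Extracranial tumor 2 was the lowest of its group in each of the 6 genes from Hoxc4 to Hoxc10, with Hoxc10 at 47, 0.428, 23.2 and 19.9 CPM in the 4 tumors. In Hoxc11 Extracranial tumor 2 lay among the SHH tumors, and the call was lost without SHH CNS tumor 2 (adjusted p = 0.0843) or 3 (0.0777). Among the D genes, Hoxd10 had 1.02, 0, 0.119 and 0 CPM in extracranial tumors, against 8.6, 66.3 and 0.691 CPM in SHH tumors (-6.57 ± 1.91, adjusted p = 0.0148), and SHH CNS tumor 2 held most of it. Without that library 2 of the 16 genes of both clusters were called lower, with Hoxd10 at -4.12 (adjusted p = 0.0971) and Hoxd13 at -2.82 (0.213). The calls of Hoxd4 and Hoxd12 were each lost without at least 5 single libraries, with adjusted p up to 0.155 and 0.147. Hoxd8 and Hoxd9 were not called, and without Extracranial tumor 1, which held 19.7 CPM of Hoxd9, that gene was lower (-5.67, adjusted p = 0.0135).

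**Figure D2:**
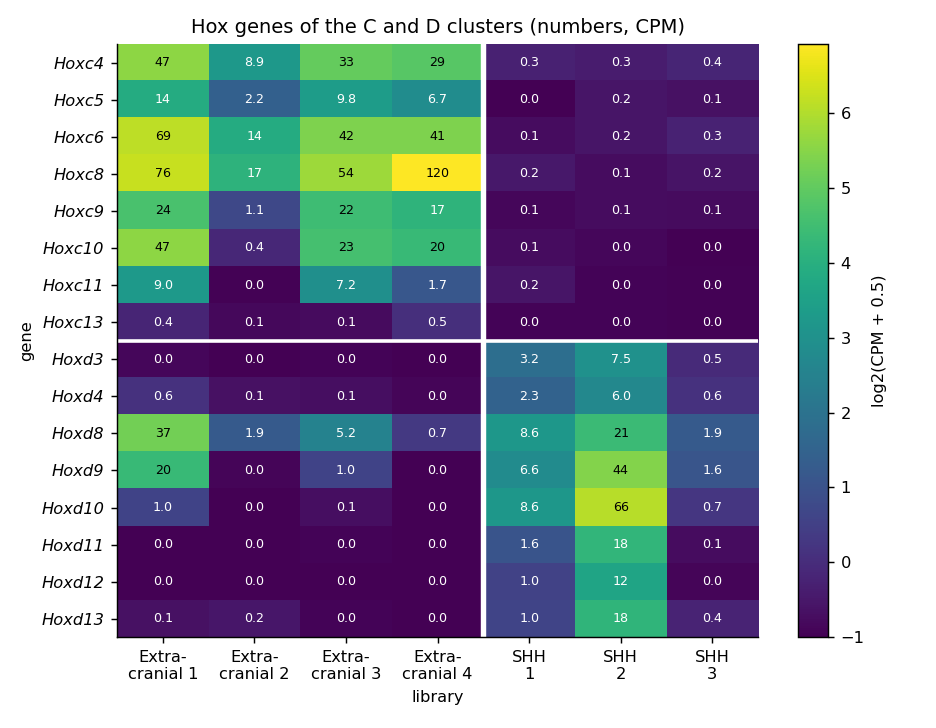
Levels of the tested Hox genes of the C cluster (upper block) and the D cluster (lower block) in the 4 extracranial and the 3 SHH libraries. Color is log2(CPM + 0.5) and numbers are CPM. C cluster genes are read in extracranial tumors with Extracranial tumor 2 lowest from Hoxc4 to Hoxc10, and D cluster genes reach their highest levels from Hoxd9 to Hoxd13 in SHH CNS tumor 2.

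The Myc family moved both ways. Myc, the transcription factor that drives growth and ribosome production, had 97.6, 137, 201 and 105 CPM in extracranial tumors, against 10.3, 20.03 and 6.53 CPM in SHH tumors (3.46 ± 0.40, adjusted p = 4.26e-05). Mycn, its paralog of the embryonic nervous system, had 0.976, 1.62, 2.63 and 0.51 CPM in extracranial tumors, against 27.4, 85.5 and 249 CPM in SHH tumors (-6.39 ± 0.75, adjusted p = 4.4e-05). Mycl, the third paralog, had 2, 0.973, 2.48 and 2.79 CPM in extracranial tumors, against 39.5, 76.1 and 77 CPM in SHH tumors (-4.97 ± 0.57, adjusted p = 3.89e-05). The groups did not overlap in any of the 3, and the calls were kept without each of the 7 libraries in turn. Max, the partner of all 3, had 96.3, 94.1, 95.9 and 85.9 CPM in extracranial tumors, against 69.5, 62.1 and 66.4 CPM in SHH tumors (0.50 ± 0.18, adjusted p = 0.0404), and that call was lost without any 1 of the 7 libraries (adjusted p from 0.0621 to 0.127). Of the 12 genes of the family and its network, these 4 were called, 2 higher and 2 lower. These shares lie near the 18.6% and 19.7% of all genes. Myc tumors, which share the extracranial libraries in their own contrast, had 133, 165, 97.3 and 113 CPM of Myc, and the difference of extracranial minus Myc tumors was 0.09 (adjusted p = 0.926).

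The Hedgehog pathway, which names the SHH subtype, was lower at its ligand and at its induced inhibitors but not at Gli1. In this pathway the ligand Shh binds the receptor Ptch1, which frees Smo to act in the primary cilium, and Gli factors then switch on targets that include Gli1, Ptch1 and Hhip. Of 22 genes 7 were lower and 2 higher, beside 19.7% and 18.6% of all genes, and 13 were not called. Neither of the 2 higher ones, Gas1 and Evc, was called without SHH CNS tumor 1 or 2. Shh had 0, 0.0973, 0.119 and 0 CPM in extracranial tumors, against 20.2, 19 and 2.11 CPM in SHH tumors (-7.80 ± 1.38, adjusted p = 0.000754). The receptor and target Ptch1 had 201, 32.2, 79.7 and 42.1 CPM in extracranial tumors, against 214, 476 and 339 CPM in SHH tumors (-1.95 ± 0.49, adjusted p = 0.00647, and -2.77 without Extracranial tumor 1). The highest extracranial library lay just below the lowest SHH library. Hhip, a decoy that binds the ligand, had 0.683, 0.525, 0.388 and 0.102 CPM in extracranial tumors, against 84.1, 31.7 and 3.83 CPM in SHH tumors (-6.55 ± 1.03, adjusted p = 0.000339). Ligand and decoy were low in all 4 extracranial tumors. Scube1, a secreted protein of a family that helps release the ligand, had 0.341, 0.311, 0.179 and 0.306 CPM in extracranial tumors, against 45.9, 15.1 and 33.9 CPM in SHH tumors (-6.79 ± 0.79, adjusted p = 4.18e-05).

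Gli1, the target most used as a readout of the pathway, had 89.4, 36.7, 116 and 40.1 CPM in extracranial tumors, against 38, 74.4 and 27.3 CPM in SHH tumors. The groups overlapped and the test called no difference (0.60 ± 0.78, adjusted p = 0.568). Its levels in the Myc tumors were 10.3, 0.626, 7.85 and 3.87 CPM, below all 4 extracranial tumors, yet the contrast of extracranial minus Myc tumors missed the threshold (3.63, adjusted p = 0.0942). Gli2, the main activator, had 0.83, 11.9, 50.8 and 0.544 CPM in extracranial tumors, against 29.1, 56.4 and 108 CPM in SHH tumors (-2.0 ± 1.25, adjusted p = 0.218), and Smo had 60.4, 128, 229 and 91.1 CPM in extracranial tumors, against 79.4, 130.2 and 193 CPM in SHH tumors (-0.08 ± 0.41, adjusted p = 0.898). Neither was called, and Gli2 ranged widely among the extracranial tumors, with a call without Extracranial tumor 3 (-3.85, adjusted p = 0.0304). Gas1, a coreceptor for the ligand, had 28.2, 316, 1725 and 405 CPM in extracranial tumors, against 30.7, 32.6 and 57.6 CPM in SHH tumors (3.94 ± 1.24, adjusted p = 0.0224), with Extracranial tumor 3 highest and Extracranial tumor 1 at the level of SHH tumors. The calls of Gas1 (adjusted p 0.0653 without Extracranial tumor 3, 0.0787 without SHH CNS tumor 1, 0.0772 without 2), of the ciliary gene Evc (0.0707 without SHH CNS tumor 1, 0.0546 without 2) and of Gpr161, a ciliary brake on the pathway (0.0555 without Extracranial tumor 3, 0.0931 without SHH CNS tumor 2, 0.0616 without 3) rested on single libraries. Sfrp1, which is counted here as a target and is a secreted Wnt inhibitor, had 6.78, 3.46, 3.67 and 2.55 CPM in extracranial tumors, against 15.4, 19.9 and 5.47 CPM in SHH tumors (-1.72 ± 0.59, adjusted p = 0.0324), and lost its call without any of Extracranial tumor 2, 3 and 4 and SHH CNS tumor 1 and 2 (adjusted p up to 0.134).

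**Figure D3:**
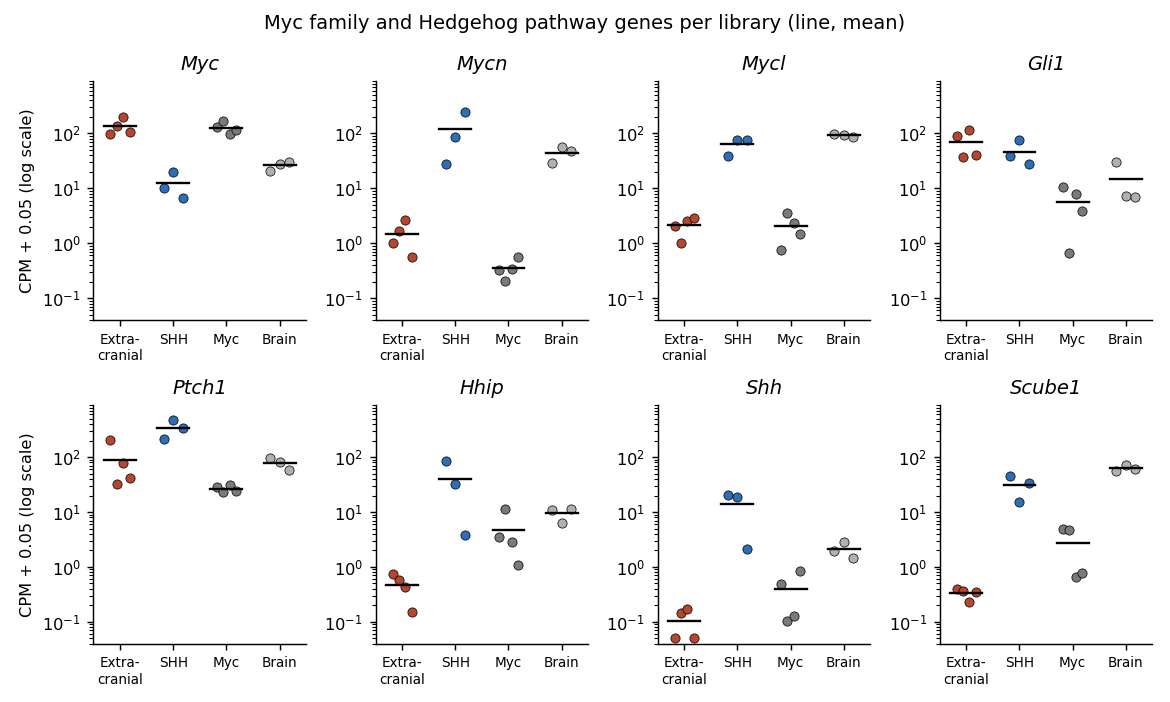
Levels of 3 Myc family genes and 5 Hedgehog pathway genes in each extracranial, SHH and Myc tumor and healthy brain, in CPM plus 0.05 on a log scale, with a line at the mean of each group. Myc is high and Mycn and Mycl low in extracranial tumors, Ptch1, Hhip, Shh and Scube1 are below all SHH tumors, and Gli1 overlaps between extracranial and SHH tumors.

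Primary cilium genes, on which the Hedgehog pathway depends in mammals, were lower in 11 of 24 and higher in 1 (none higher without Extracranial tumor 1, 2 or 4 or SHH CNS tumor 1 or 2). Over all genes, 19.7% were lower and 18.6% higher. The cilium changes were mostly small, with 1 gene at least 4-fold lower and a median log2 fold change of -0.62. Bbs1, a subunit of the BBSome that carries receptors in the cilium, had 7.27, 6.07, 13.8 and 5.44 CPM in extracranial tumors, against 51.9, 51.5 and 47.9 CPM in SHH tumors (-2.63 ± 0.35, adjusted p = 0.000107). Kif3a, a motor of transport into the cilium, had 27.8, 39.2, 20.3 and 22.5 CPM in extracranial tumors, against 90.1, 95.7 and 66.3 CPM in SHH tumors (-1.61 ± 0.23, adjusted p = 0.00017). The groups did not overlap in either gene. In the Wnt list, 6 of 27 were lower and 4 higher (2 without Extracranial tumor 3 or SHH CNS tumor 2, 1 without SHH CNS tumor 1). The shares of the Wnt list lie near the 19.7% and 18.6% of all genes. The ligand Wnt3 had 0.0488, 0.0389, 0 and 0 CPM in extracranial tumors, against 49, 71.9 and 95.2 CPM in SHH tumors (-11.56 ± 0.85, adjusted p = 4.46e-06). The receptor Fzd10 had 0.0976, 0.0778, 0.298 and 0.102 CPM in extracranial tumors, against 109, 82 and 64.6 CPM in SHH tumors (-9.19 ± 0.71, adjusted p = 4.46e-06). Wnt3 and Fzd10 had the smallest adjusted p of the list.

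Subunits of the SWI/SNF complex were called in 12 of 29, 10 lower and 2 higher (1 without Extracranial tumor 4 or SHH CNS tumor 2). Over all genes, 19.7% were lower and 18.6% higher. Smarcb1 is in the list and was not called. Actl6b, the subunit that replaces Actl6a in neurons, had 0, 0.0973, 0.0298 and 0 CPM in extracranial tumors, against 43.3, 50.2 and 11.2 CPM in SHH tumors (-9.68 ± 0.90, adjusted p = 1.12e-05). Ss18l1, the neuronal counterpart of Ss18, had 7.22, 15.1, 5.64 and 11.5 CPM in extracranial tumors, against 66.6, 73.8 and 39.6 CPM in SHH tumors (-2.60 ± 0.32, adjusted p = 6.51e-05). Dpf3, another subunit of differentiated cells, had 0.146, 0.0195, 0.626 and 0.374 CPM in extracranial tumors, against 4.56, 6.11 and 5.56 CPM in SHH tumors (-4.21 ± 0.91, adjusted p = 0.00278). Smarcd3 was -2.15 ± 0.38 and its paralog Smarcd2 1.62 ± 0.18 on the log2 scale, at 84.7, 61.5, 103 and 76 CPM of Smarcd2 in extracranial and 27, 23.3 and 29.3 CPM in SHH tumors. These 2 paralogs, which share a position in the complex, moved in opposite directions. Smaller decreases included the ATPase Smarca2 (-1.45 ± 0.34), Smarcc2 (-0.82 ± 0.15) and Brd9 (-0.79 ± 0.16), a subunit of the noncanonical complex that has no Smarcb1. Ss18 was called higher (0.72 ± 0.21, adjusted p = 0.0153), and the call was lost without Extracranial tumor 4 (adjusted p = 0.0505) or SHH CNS tumor 1 (0.077) or 2 (0.0725). Polycomb genes, whose silencing SWI/SNF opposes, were called in 6 of 22, 4 lower and 2 higher, and none was higher without SHH CNS tumor 1 or 2. The share called lower lies near the 19.7% of all genes, and the share called higher lies under their 18.6%. Ezh2, the histone methyltransferase, was not called (-0.56 ± 0.48, adjusted p = 0.378), and Phc1, a subunit of the other polycomb complex, had 32.7, 56.5, 61.6 and 32.3 CPM in extracranial tumors, against 101, 166 and 334 CPM in SHH tumors (-2.13 ± 0.36, adjusted p = 0.000513).

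Genes of mesenchyme and matrix were higher in extracranial tumors. Collagens were higher in 11 of 19 and lower in 1 (none lower without Extracranial tumor 1, 3 or 4 or SHH CNS tumor 2 or 3), and matrix and matricellular genes higher in 16 of 27 with none lower. Summed over the collagen list, extracranial tumors held 10900 to 19100 CPM and SHH tumors 902 to 1410 CPM. Col5a2, a fibrillar collagen, had 353, 3315, 2371 and 2570.5 CPM in extracranial tumors, against 62.4, 39.8 and 77.5 CPM in SHH tumors (5.17 ± 0.91, adjusted p = 0.000704). Col1a2, a chain of the main collagen of bone and skin, had 277, 3098, 4818 and 5784 CPM in extracranial tumors, against 130.1, 87.9 and 40.9 CPM in SHH tumors (5.34 ± 1.25, adjusted p = 0.00454). Fbn1, the fibrillin of microfibrils, had 584, 173, 153 and 439 CPM in extracranial tumors, against 18.7, 35.3 and 63 CPM in SHH tumors (3.11 ± 0.57, adjusted p = 0.000958). No SHH library reached any extracranial library in these 3. Postn, periostin, had 122, 2690.0, 42.5 and 10947 CPM in extracranial tumors, against 9.99, 7.59 and 7.08 CPM in SHH tumors (8.71 ± 1.82, adjusted p = 0.00224), a range of over 100-fold among the extracranial tumors. Fbln2, a fibulin, had 1469.6, 1135, 21.9 and 2255 CPM in extracranial tumors, against 5, 3.5 and 5.8 CPM in SHH tumors (8.0 ± 1.57, adjusted p = 0.00149). Timp1, an inhibitor of matrix proteases, had 649.8, 1738, 3.25 and 1343 CPM in extracranial tumors, against 1.78, 3.38 and 2.02 CPM in SHH tumors (8.61 ± 1.75, adjusted p = 0.00183), so Extracranial tumor 3 lay within the SHH tumors. The matrix count was 10 without SHH CNS tumor 1 and 9 without SHH CNS tumor 2.

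Mesenchymal transcription factors were higher in 9 of 22 and lower in 1, beside 18.6% and 19.7% of all genes. Runx1, known from blood and skeletal progenitors, had 90.0, 28.3, 33.4 and 58.7 CPM in extracranial tumors, against 2.96, 5.5 and 4.56 CPM in SHH tumors (3.60 ± 0.83, adjusted p = 0.00395). Runx2, the factor of bone formation, had 77.7, 99.5, 8.35 and 99.2 CPM in extracranial tumors, against 5.02, 7.97 and 3.85 CPM in SHH tumors (3.67 ± 0.88, adjusted p = 0.00509), with Extracranial tumor 3 close to the SHH tumors. Osr1, a factor of intermediate mesoderm and limb mesenchyme, had 2.59, 69.7, 5.52 and 49.9 CPM in extracranial tumors, against 0.567, 0.376 and 1.13 CPM in SHH tumors (5.50 ± 1.3, adjusted p = 0.00476). Snai2, with 2.78, 24, 98.1 and 3.02 CPM in extracranial tumors, against 0.902, 0.823 and 3.44 CPM in SHH tumors, was highest in Extracranial tumor 3, and its log2 fold change was 4.21 ± 1.14 with that tumor and 2.52 without. Tbx15, with 1.85, 10.1, 82.2 and 14.5 CPM in extracranial tumors, against 0.824, 1.27 and 2.16 CPM in SHH tumors, was highest there too (4.25 ± 1.18, adjusted p = 0.0119, and 2.63 without it, with the call lost without SHH CNS tumor 1 at adjusted p = 0.0515). Meox1, a somite factor, had 4.2, 231, 1.61 and 212 CPM in extracranial tumors, against 1.52, 1.25 and 1.53 CPM in SHH tumors (6.29 ± 1.96, adjusted p = 0.021), high in the 2 tumors that were also highest in Osr1, and lost its call without SHH CNS tumor 1 (0.069), 2 (0.0721) or 3 (0.0633). Of the 22 factors, 5 were called higher without SHH CNS tumor 1, none was called lower without Extracranial tumor 1 or 4 or SHH CNS tumor 1 or 3, and 2 were without Extracranial tumor 3.

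Skeletal muscle genes summed to 234, 145, 64.5 and 16 CPM in extracranial tumors and 82.5, 11.4 and 11.4 CPM in SHH tumors. Of the list, 2 of 19 were called higher, beside 18.6% of all genes (6 without Extracranial tumor 3, 5 without 4, 1 without SHH CNS tumor 1 or 3). Myod1, the factor that defines muscle cells, stayed at or under 0.603 CPM in all 7 libraries. Hepatocyte genes summed to at most 12.8 CPM in extracranial tumors, and to 1680, 13.1 and 1.8 CPM in SHH tumors, and the list holds Ttr. Of 15 genes of epithelium 3 were higher and 3 lower, near the 18.6% and 19.7% of all genes, with a median log2 fold change of 0.33. Without Extracranial tumor 1 or SHH CNS tumor 2 or 3, 1 was higher, and without SHH CNS tumor 3, 1 was lower. The keratins of simple epithelium Krt8, with 885, 1.4, 0.984 and 8.91 CPM in extracranial tumors, against 3.55, 0.376 and 0.351 CPM in SHH tumors (7.31 ± 2.53, adjusted p = 0.0341), and Krt18, with 389.7, 1.54, 0.776 and 24.9 CPM in extracranial tumors, against 5, 0.047 and 0.362 CPM in SHH tumors (5.87 ± 2.17, adjusted p = 0.0449), were high in Extracranial tumor 1, and their calls were lost without it, at log2 fold changes of 1.41 (adjusted p = 0.455) and 2.35 (0.259). Krt8 also lost its call without SHH CNS tumor 1 (0.052), 2 (0.108) or 3 (0.101), and Krt18 without 2 (0.12) or 3 (0.123), while without SHH CNS tumor 1 its log2 fold change was 8.87. Whether cells of these tissues were present, and their part in the other results, was not tested.

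Receptor tyrosine kinases moved both ways, with 7 of 21 higher and 7 lower, beside 18.6% and 19.7% of all genes. Axl, the receptor for Gas6, had 702, 500.1, 220.2 and 825 CPM in extracranial tumors, against 73.8, 28.7 and 44.2 CPM in SHH tumors (3.52 ± 0.49, adjusted p = 0.000155). Epha2, an ephrin receptor, had 416, 125, 16.3 and 47.1 CPM in extracranial tumors, against 2.06, 2.42 and 2.07 CPM in SHH tumors (6.11 ± 1.20, adjusted p = 0.00147). Egfr, the epidermal growth factor receptor, had 115, 258, 562 and 247 CPM in extracranial tumors, against 31.9, 64.1 and 16.8 CPM in SHH tumors (2.97 ± 0.61, adjusted p = 0.00195). No SHH library reached an extracranial one in these 3. Of the receptors that fell, Erbb4, a neuregulin receptor, had 0.0488, 0.272, 0.119 and 0.068 CPM in extracranial tumors, against 51.3, 52.4 and 18.1 CPM in SHH tumors (-8.18 ± 0.71, adjusted p = 6.82e-06), and Ntrk2, the receptor for brain-derived neurotrophic factor, had 1.22, 2.43, 6.89 and 1.16 CPM in extracranial tumors, against 569, 205 and 57.4 CPM in SHH tumors (-6.56 ± 1.28, adjusted p = 0.00141). Within 1 receptor family, Axl and its relative Tyro3 (-2.56 ± 0.44) and likewise Egfr and its relative Erbb4 moved in opposite directions. Fgfr3 fell by 5.46 on the log2 scale, and without SHH CNS tumor 1 the change was -2.50 (adjusted p = 0.0617). Pdgfra, a receptor of mesenchyme and glial precursors, was not called (0.88 ± 0.72, adjusted p = 0.349), except without SHH CNS tumor 3 (2.19, adjusted p = 0.0375). In the BMP and TGF-beta list 8 of 26 were higher, 4 without SHH CNS tumor 1 or 2, and 2 were lower, 4 without Extracranial tumor 3 and 1 without SHH CNS tumor 2. With 4 of 26, the share called higher lies under the 18.6% of all genes. The ligand Tgfb1 had 151, 64, 29.3 and 51 CPM in extracranial tumors, against 8.65, 8.89 and 9.76 CPM in SHH tumors (3.02 ± 0.49, adjusted p = 0.000417) and its receptor Tgfbr2 1007, 290.4, 154 and 332 CPM in extracranial tumors, against 42.5, 32.6 and 45.8 CPM in SHH tumors (3.47 ± 0.62, adjusted p = 0.000753), both without overlap.

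Genes of MHC class I presentation and of the interferon response were higher in extracranial tumors in nearly whole lists. All 16 MHC class I presentation genes and 32 of 33 interferon response genes were higher in extracranial tumors, beside 18.6% of all genes, with median log2 fold changes of 3.12 and 3.62. These 2 counts stayed within 1.5 times in each of the alternatives, which include leaving out each library. The exception was Cmpk2, a nucleotide kinase chosen here after its value was seen, with 20.2, 11.8, 24 and 2.75 CPM in extracranial tumors, against 34.1, 37 and 19.7 CPM in SHH tumors (-1.04 ± 0.56, adjusted p = 0.157). The groups overlapped in that gene. Psmb8, a subunit of the immunoproteasome that cuts peptides for display, had 102, 41.2, 94.5 and 73.7 CPM in extracranial tumors, against 5.1, 4.51 and 5.66 CPM in SHH tumors (3.93 ± 0.32, adjusted p = 4.46e-06). Tap1, a subunit of the pump that loads them, had 114, 53, 110.3 and 55.6 CPM in extracranial tumors, against 8.6, 8.86 and 7 CPM in SHH tumors (3.35 ± 0.33, adjusted p = 1.81e-05). B2m, the common light chain of class I, had 1760.1, 920.0, 1381 and 445 CPM in extracranial tumors, against 147, 133 and 169 CPM in SHH tumors (2.91 ± 0.40, adjusted p = 0.000134). In all 3 the SHH tumors lay close together and below the lowest extracranial tumor. Genes such as H2-K1 (3.15 ± 0.51) and H2-D1 (3.09 ± 0.43) have near-identical relatives, and their single values are uncertain.

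Of the interferon response, Dhx58, a regulator of the RNA sensor RIG-I, had 189, 74.2, 83.8 and 129 CPM in extracranial tumors, against 3.66, 3.43 and 4.52 CPM in SHH tumors (4.94 ± 0.42, adjusted p = 6.27e-06). Bst2, tetherin, which holds budding virus at the membrane, had 484, 164, 344 and 66.8 CPM in extracranial tumors, against 11.1, 8.32 and 12.2 CPM in SHH tumors (4.65 ± 0.60, adjusted p = 9.01e-05). Gbp2, a GTPase induced by interferon gamma, had 127, 141, 262 and 41 CPM in extracranial tumors, against 7.96, 3.93 and 5 CPM in SHH tumors (4.67 ± 0.58, adjusted p = 7e-05). Extracranial tumor 4 was the lowest of its group in Bst2 and Gbp2 but not in Dhx58. Summed over the list, extracranial tumors held 1280 to 4820 CPM, with Extracranial tumor 4 lowest, and SHH tumors 282 to 375 CPM. Sensors of nucleic acid were higher in 12 of 14 with none lower. Cgas, which senses DNA in the cytosol, had 19.4, 16.9, 28.2 and 12.2 CPM in extracranial tumors, against 1.24, 1.08 and 1.12 CPM in SHH tumors (4.06 ± 0.32, adjusted p = 4.46e-06), and Ticam1, an adaptor of Toll-like receptors, was 1.95 ± 0.24.

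The interferon-stimulated response element is the letter pattern that interferon-activated STAT and IRF factors bind, and it was searched as GAAANNGAA on both strands in the 300 bases around each RefSeq gene start (build GRCm38.p6). It was present in 15 of 24 interferon response genes with a promoter in the table (62.5%) and in 4 of 14 MHC class I genes (28.6%), against 9.0% of the 14067 genes tested that had one and 8.56% of all 32851 promoters. Among genes at least 4-fold higher in extracranial tumors the share was 15.7% and among those at least 4-fold lower 8.25%. The pattern was looked for because of the names of these genes, and a match is a description and not a bound site. The 4 interferon response and 2 class I genes shown are the called ones with the smallest adjusted p and a match before the gene start, and they are printed 5′ to 3′ on the strand of the gene, with the match in capitals. Where the capitals read TTC first, the match lies on the opposite strand.
Gbp2, chr3:142620575-142620643, plus strand: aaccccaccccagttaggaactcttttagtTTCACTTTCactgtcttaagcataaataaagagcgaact
Bst2, chr8:71537564-71537632, minus strand: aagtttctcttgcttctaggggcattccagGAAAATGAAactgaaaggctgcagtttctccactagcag
Oas1a, chr5:120907526-120907575, minus strand: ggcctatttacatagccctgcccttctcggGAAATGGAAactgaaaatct
Isg15, chr4:156200858-156200926, minus strand: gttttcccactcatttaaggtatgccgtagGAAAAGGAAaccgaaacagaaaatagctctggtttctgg
B2m, chr2:122147518-122147586, plus strand: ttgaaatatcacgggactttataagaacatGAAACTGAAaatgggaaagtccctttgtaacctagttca
H2-T23, chr17:36032786-36032854, minus strand: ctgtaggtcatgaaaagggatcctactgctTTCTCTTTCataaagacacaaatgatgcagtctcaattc
The matches start 58 bases before the gene start in Gbp2, 130 in Bst2, 20 in Oas1a, 78 in Isg15, 139 in B2m and 123 in H2-T23, and overlapping matches were counted once per promoter. Isg15, a ubiquitin-like protein, had 112, 114, 166 and 15 CPM in extracranial tumors, against 5.92, 4.75 and 4.47 CPM in SHH tumors (4.33 ± 0.65, adjusted p = 0.000247), and Oas1a, which makes the activator of RNase L and has close copies, 85.6, 39.4, 86.9 and 7.85 CPM in extracranial tumors, against 2.32, 1.25 and 3.4 CPM in SHH tumors (4.56 ± 0.68, adjusted p = 0.000234). Extracranial tumor 4 was lowest in both. H2-T23, a nonclassical class I gene, had 209, 73.3, 197 and 55.6 CPM in extracranial tumors, against 12.9, 5.69 and 13.7 CPM in SHH tumors (3.63 ± 0.55, adjusted p = 0.000262).

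Genes of macrophages and monocytes were higher in 22 of 23, and the remaining one was not called. Ptprc, the CD45 antigen of all white cells, had 259, 83.8, 113 and 128 CPM in extracranial tumors, against 9.87, 8.39 and 18.3 CPM in SHH tumors (3.58 ± 0.47, adjusted p = 0.0001). Msr1, a scavenger receptor, had 188, 58.9, 35.1 and 96.1 CPM in extracranial tumors, against 1.18, 2.77 and 3.23 CPM in SHH tumors (5.30 ± 0.81, adjusted p = 0.000292). Csf1r, the receptor that macrophages need to live, had 957, 412, 307 and 1102 CPM in extracranial tumors, against 125, 73.4 and 82.7 CPM in SHH tumors (2.89 ± 0.53, adjusted p = 0.000953). All 3 were without overlap, and the summed list ran from 4100 to 12500 CPM in extracranial and from 543 to 738 CPM in SHH tumors. Extracranial tumor 4 stood apart in kind. Its Mrc1, the mannose receptor of resident macrophages, was the lowest of the group at 548, 176, 212 and 9.99 CPM in the 4 tumors, against 5.64, 2.04 and 4.37 CPM in SHH tumors (5.88 ± 1.05, adjusted p = 0.000782), while its Cd68 and Csf1r were the highest of the group.

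Genes that set microglia, the macrophages of the brain, apart from other macrophages moved less evenly. Summed over the list of 11 genes, extracranial tumors held 3640, 3570, 2010 and 3410 CPM, against 1400, 883 and 611 CPM in SHH tumors, so the sums did not overlap. P2ry12 had 29.8, 22.6, 19.1 and 3.3 CPM in extracranial tumors, against 27.7, 14.2 and 9.4 CPM in SHH tumors (0.13 ± 0.61, adjusted p = 0.885), and Tmem119 14, 73.8, 29.8 and 12.1 CPM in extracranial tumors, against 20.8, 15.7 and 14 CPM in SHH tumors (0.95 ± 0.97, adjusted p = 0.458). Sall1, a factor of microglia that neural progenitors also express, had 0.0976, 0.0389, 0 and 0.034 CPM in extracranial tumors, against 34.5, 30.4 and 7.09 CPM in SHH tumors (-9.21 ± 1.08, adjusted p = 4.54e-05). Of the 11 genes 4 were higher and 2 lower, with a median log2 fold change of 1.26. Olfml3 was called higher at 2.06 ± 0.46, and the calls of Trem2 and Siglech were each lost without at least 3 single libraries, with adjusted p up to 0.0977 and 0.169. Trem2 was 1.10 without Extracranial tumor 1 and Siglech -1.66 without SHH CNS tumor 1. Without SHH CNS tumor 2 or 3, 1 of the 11 genes was called higher, and without Extracranial tumor 2 or 3 or SHH CNS tumor 1, 1 was called lower.

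**Figure D4:**
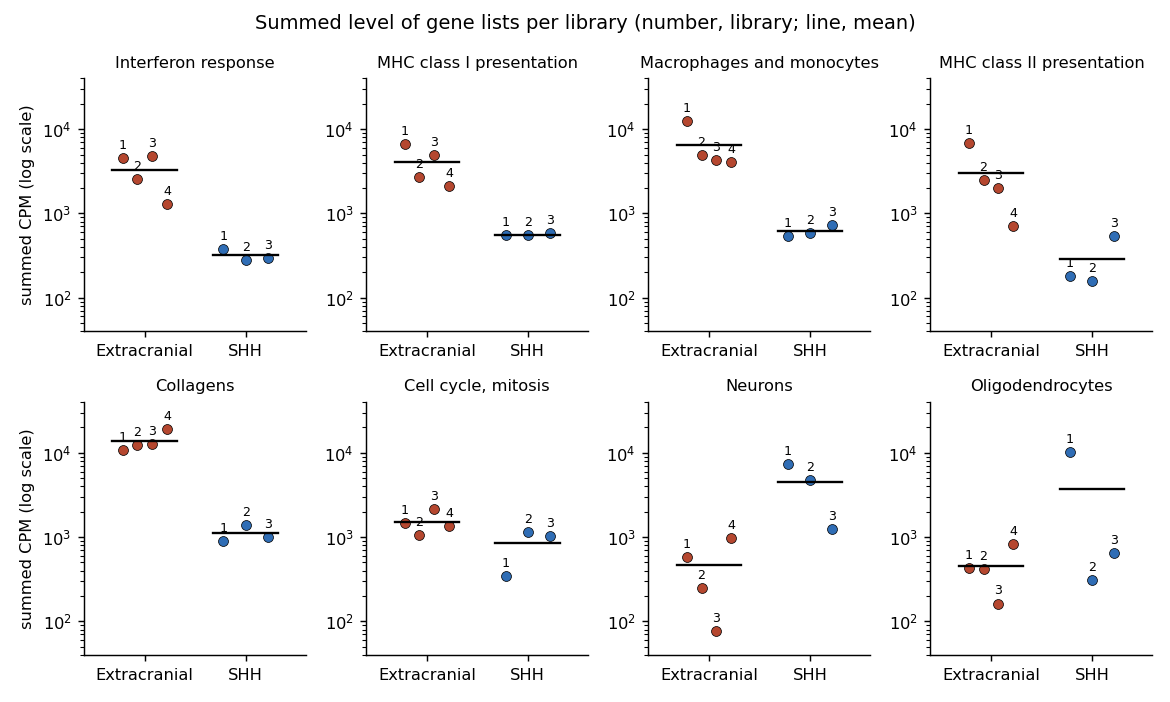
Summed CPM of 8 gene lists in each library on a log scale, extracranial tumors left of SHH tumors, with the library number at each point and a line at the mean. The interferon, MHC class I, macrophage and collagen lists do not overlap, Extracranial tumor 4 is lowest in the first 4 lists, SHH CNS tumor 3 is highest of its group in MHC class II and SHH CNS tumor 1 is highest in the oligodendrocyte list and lowest in the mitosis list.

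T and NK cell genes were called higher in 15 of 24, beside 18.6% of all genes. Summed over the list, the groups overlapped, with 116, 440.0, 97.2 and 128 CPM in extracranial tumors, against 401, 66.5 and 36.3 CPM in SHH tumors. Cd4, the coreceptor of helper T cells, had 6.78, 7.41, 29.5 and 12.7 CPM in extracranial tumors, against 0.489, 0.799 and 0.736 CPM in SHH tumors (4.38 ± 0.62, adjusted p = 0.000155). Gzmb, the granzyme of killer cells, had 3.12, 0.584, 1.31 and 0.51 CPM in extracranial tumors, against 0, 0.0235 and 0.0113 CPM in SHH tumors (6.64 ± 1.51, adjusted p = 0.00379). Neither gene reached 30 CPM in any of the 7 libraries, and no library of 1 group overlapped the other. The count was 8 without Extracranial tumor 1 and 4 without SHH CNS tumor 1 or 2. MHC class II genes were higher in 8 of 9. Its invariant chain Cd74 had 2256, 730.1, 537 and 189 CPM in extracranial tumors, against 7.44, 5.64 and 157 CPM in SHH tumors (4.03 ± 1.26, adjusted p = 0.0216), and SHH CNS tumor 3 was far above the other SHH tumors. Without that library the log2 fold change was 7.15, and the call was lost without Extracranial tumor 1 (adjusted p = 0.0586), SHH CNS tumor 1 (0.0693) or 2 (0.0644). Without SHH CNS tumor 1 or 2, 4 of the 9 genes were called. Of 9 tested genes of B and plasma cells 2 were higher and 2 lower, near the 18.6% and 19.7% of all genes. Both of these counts fell to 1 without some single libraries. Of 12 dendritic cell genes 6 were higher, and 2 without Extracranial tumor 1 or SHH CNS tumor 1 or 2. Summed over the dendritic list the groups overlapped, at 138 to 382 CPM in extracranial and 193 to 279 CPM in SHH tumors.

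Chemokines and their receptors were higher in 15 of 21 and complement genes in 9 of 14. Ccl2, which recruits monocytes, had 173, 239, 31.2 and 225 CPM in extracranial tumors, against 0.927, 0.635 and 0.996 CPM in SHH tumors (7.61 ± 1.26, adjusted p = 0.000463). Ccr1, a receptor for CC chemokines, had 92.4, 60.9, 43.6 and 223 CPM in extracranial tumors, against 2.4, 1.53 and 2.75 CPM in SHH tumors (5.55 ± 0.73, adjusted p = 0.000101). Cxcl16 had 368, 139, 91.5 and 64 CPM in extracranial tumors, against 4.38, 6.04 and 10.3 CPM in SHH tumors (4.58 ± 0.68, adjusted p = 0.000231). The groups did not overlap in these 3. Single tumors stood out for others, and Cxcl9, the interferon-induced attractant of T cells, had 15.9, 2.08, 377 and 0.102 CPM in extracranial tumors, against 0.129, 0.0705 and 0.125 CPM in SHH tumors, and its log2 fold change was 9.79 ± 2.32 with Extracranial tumor 3 and 5.75 without. The ligand Cx3cl1, which neurons present to microglia, was lower, with 12.9, 58.4, 15.9 and 0.85 CPM in extracranial tumors, against 278, 96.6 and 133 CPM in SHH tumors (-2.94 ± 0.87, adjusted p = 0.0164, and 0.0695 without SHH CNS tumor 1). Among checkpoint genes 7 of 12 were higher, including Cd274, which encodes PD-L1, with 39.3, 35.2, 22.7 and 14.1 CPM in extracranial tumors, against 4.48, 2.42 and 3.2 CPM in SHH tumors (3.05 ± 0.66, adjusted p = 0.00275).

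Vessel genes were called in part, general ones higher and brain-specific ones lower. Of 14 endothelial genes 4 were higher and none lower, beside 18.6% of all genes called higher. Summed over the list the groups overlapped, with 458, 538, 208 and 188 CPM in extracranial tumors, against 294, 147 and 192 CPM in SHH tumors. Cdh5, the cadherin of all endothelium, had 82, 89.3, 22.6 and 25.1 CPM in extracranial tumors, against 16.5, 13 and 17.4 CPM in SHH tumors (1.81 ± 0.49, adjusted p = 0.00995). Plvap, a protein of the pores that leaky vessels carry and brain vessels lack, had 30.2, 30.3, 23.7 and 25.1 CPM in extracranial tumors, against 6.9, 2.07 and 1.39 CPM in SHH tumors (2.99 ± 0.94, adjusted p = 0.0218, and -0.02 with the file number series as a term). Of 12 blood-brain barrier genes 6 were lower and none higher, beside 19.7% of all genes called lower. The sums of that list overlapped too, with 257, 904, 197 and 2290 CPM in extracranial tumors, against 697, 483 and 867 CPM in SHH tumors. Extracranial tumor 2 and 4 lay above all SHH tumors in that sum. Mfsd2a, the lipid transporter that keeps brain endothelium tight, had 0.146, 0.448, 2.74 and 0.51 CPM in extracranial tumors, against 35.5, 18.6 and 27.3 CPM in SHH tumors (-4.81 ± 0.78, adjusted p = 0.000402). Slco1a4, an organic anion transporter of brain capillaries, had 0, 0.0973, 0.119 and 0 CPM in extracranial tumors, against 86, 10.8 and 20.1 CPM in SHH tumors (-9.28 ± 1.85, adjusted p = 0.00223). The Plvap call was lost without SHH CNS tumor 2 (adjusted p = 0.0827) or 3 (0.0778), and the endothelial count was 2 without Extracranial tumor 2 and 1 without SHH CNS tumor 2 or 3.

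The largest increases were led by single tumors. The 15 genes with the largest log2 fold change, at least 10 CPM in extracranial tumors and no overlap, were Qrfp, Prl2c3, Klra4, Ang2, Mmp9, Aqp5, Mmp10, Atp6v0d2, Acp5, Tlx2, Ctsk, Ccr3, Angptl7, Srpx and Tm4sf19. In 13 of the 15, 1 extracranial library held over 75% of the group's summed CPM. The exceptions were Aqp5, a water channel, with 566, 185, 2.89 and 602 CPM in extracranial tumors, against 0, 0.329 and 0.272 CPM in SHH tumors (10.66 ± 2.24, adjusted p = 0.00226), and Srpx, with 1.71, 456, 0.686 and 478 CPM in extracranial tumors, against 0.464, 0.4 and 0.159 CPM in SHH tumors (9.46 ± 2.47, adjusted p = 0.0084). Prl2c3, Klra4 and Ang2 belong to families of near-identical copies, so their values are uncertain. Klra4 had no count in SHH tumors and was at least 711-fold higher over a floor of 3 counts. Without SHH CNS tumor 1, 2 or 3 the calls of Prl2c3, Ang2, Tlx2 and Mmp10 were lost (adjusted p from 0.0579 to 0.125), as were that of Angptl7 without SHH CNS tumor 2 (0.05), that of Tlx2 without Extracranial tumor 2 (0.0572) and that of Mmp10 without it (0.239). Angptl7 was 4.25 without Extracranial tumor 2.

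Extracranial tumor 4 held over 75% of the group's total in 6 of these genes, among them 4 known from osteoclasts, the macrophage-derived giant cells that resorb bone. Ctsk, the protease with which they degrade bone collagen, had 382, 12.9, 17.8 and 8031 CPM in extracranial tumors, against 2.65, 1.13 and 2.29 CPM in SHH tumors (10.03 ± 2.51, adjusted p = 0.00666). Acp5, their acid phosphatase, had 414, 20.01, 42.9 and 7396 CPM in extracranial tumors, against 1.26, 0.987 and 2.67 CPM in SHH tumors (10.22 ± 2.55, adjusted p = 0.00661). Mmp9, a protease of osteoclasts and neutrophils, had 659, 394, 22.5 and 12277 CPM in extracranial tumors, against 1.52, 1.5 and 1.11 CPM in SHH tumors (11.24 ± 2.41, adjusted p = 0.0026). Atp6v0d2, a proton pump subunit, had 43.3, 1.19, 3.4 and 945 CPM in extracranial tumors, against 0.206, 0.047 and 0.328 CPM in SHH tumors (10.24 ± 2.63, adjusted p = 0.0077). Extracranial tumor 1 was second in each of the 4, far above tumors 2 and 3 for Ctsk, Acp5 and Atp6v0d2. Further genes of the same cells, looked at after these values were seen, had the same order at the top: the fusion protein Dcstamp had 13.9, 0.175, 0.447 and 303 CPM in extracranial tumors, against 0.541, 0.188 and 0.0679 CPM in SHH tumors, and its partner Ocstamp 14.3, 0.798, 0.507 and 358 CPM in extracranial tumors, against 0.0258, 0.0235 and 0.396 CPM in SHH tumors. The factor Nfatc1 had 190.1, 24.6, 16.3 and 747 CPM in extracranial tumors, against 8.68, 4.37 and 7.78 CPM in SHH tumors, and the receptor Tnfrsf11a 75.3, 17.6, 35.8 and 191 CPM in extracranial tumors, against 9.38, 7.76 and 5.51 CPM in SHH tumors. Tnfsf11, the ligand that drives osteoclast formation, had 4.44, 2.63, 0.746 and 69.1 CPM in extracranial tumors, against 0.103, 0.165 and 0.102 CPM in SHH tumors (7.27 ± 1.87, adjusted p = 0.00778). Without Extracranial tumor 4, log2 fold changes were 6.00 for Ctsk, 6.50 for Acp5, 6.23 for Atp6v0d2, 3.39 for Nfatc1 and 4.33 for Tnfsf11, against 10.03 ± 2.51, 10.22 ± 2.55, 10.24 ± 2.63, 5.14 ± 1.11 and 7.27 ± 1.87 with it, and each of these calls was kept. The calls of Dcstamp (8.26 ± 2.61, adjusted p = 0.0225) and Ocstamp (9.13 ± 2.79, adjusted p = 0.0192) were lost without it (0.104 and 0.0706), without SHH CNS tumor 1 (0.0543 and 0.0697) or 2 (0.0779 and 0.0696), and that of Dcstamp without 3 (0.0739).

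**Figure D5:**
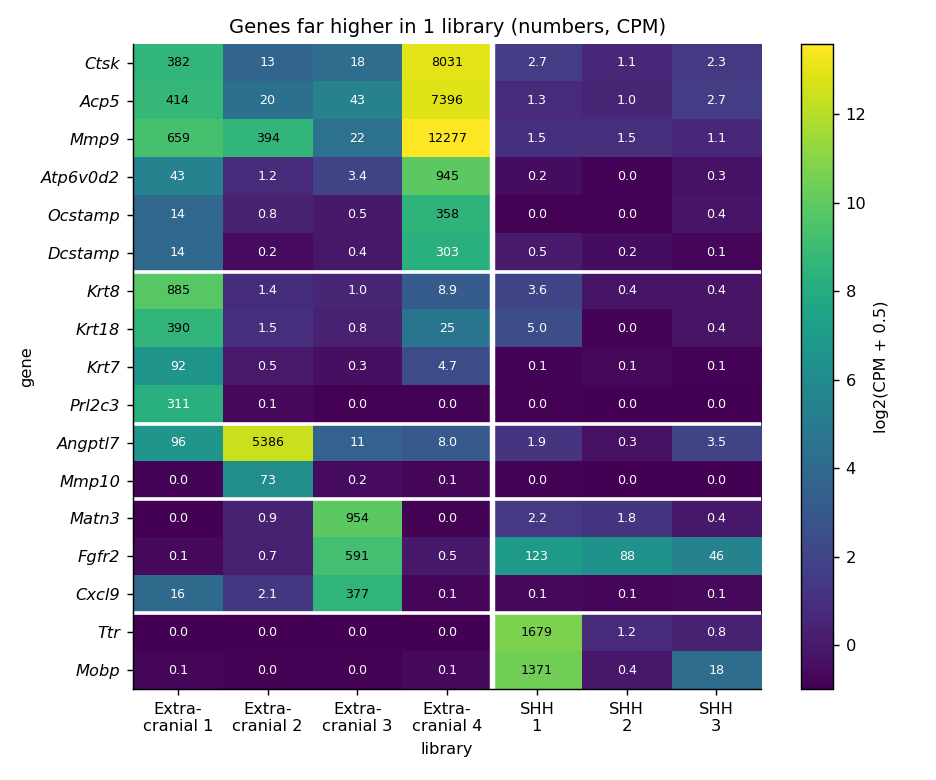
Levels of 17 genes in the 7 libraries, as log2(CPM + 0.5) in color and as CPM in numbers, in blocks by the library in which they are highest. From the top the blocks are 6 osteoclast genes highest in Extracranial tumor 4, 4 genes highest in Extracranial tumor 1, 2 in Extracranial tumor 2, 3 in Extracranial tumor 3, and 1 choroid plexus and 1 myelin gene highest in SHH CNS tumor 1.

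Genes of cell division were higher in part. S phase genes were called higher in 13 of 22 and mitosis genes in 8 of 21, with none lower, beside 18.6% of all genes called higher. Cdt1, which licenses replication origins, had 37.3, 76.5, 48.6 and 61.9 CPM in extracranial tumors, against 5.15, 15.6 and 16.1 CPM in SHH tumors (2.19 ± 0.39, adjusted p = 0.000834). E2f1, the factor of S phase entry, had 45.2, 51.8, 58.4 and 35 CPM in extracranial tumors, against 11.1, 15.9 and 23.7 CPM in SHH tumors (1.49 ± 0.30, adjusted p = 0.00183). SHH CNS tumor 1 was the lowest of the 7 in both, and summed mitosis genes were 342 CPM in it against 1040 CPM or more in the other 6. Without it the S phase count was 8 and the mitosis count 1. The mitosis count was also 4 without Extracranial tumor 1, 1 without Extracranial tumor 3, 3 without Extracranial tumor 4 and 5 without SHH CNS tumor 3, so the mitosis calls rested on single libraries.

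Inhibitors of the cycle were also called higher. Cdkn2a, the locus of p16 and p19ARF that is often silenced in cancer, had 28.6, 39.4, 18.8 and 25 CPM in extracranial tumors, against 2.09, 3.6 and 2.69 CPM in SHH tumors (3.32 ± 0.44, adjusted p = 0.000113). Cdkn1a, the p21 inhibitor and a main target of p53, had 217, 416, 149 and 228 CPM in extracranial tumors, against 22.9, 29.5 and 8.31 CPM in SHH tumors (3.64 ± 0.51, adjusted p = 0.000159). Cdkn2b, p15, had 7.41, 19.9, 5.97 and 11.7 CPM in extracranial tumors, against 3.22, 3.64 and 1.43 CPM in SHH tumors (2.03 ± 0.52, adjusted p = 0.00767). The groups did not overlap in any of the 3, and each call was kept without each library. Rb1, the target of the kinases that these proteins inhibit, was lower, with 53.4, 27.5, 22.1 and 39.2 CPM in extracranial tumors, against 61.5, 83 and 85.2 CPM in SHH tumors (-1.11 ± 0.28, adjusted p = 0.00674). Trp53 and its targets were higher in 9 of 16 and lower in 1 (2 without SHH CNS tumor 3). Trp53 had 164, 150.3, 237 and 146 CPM in extracranial tumors, against 59.7, 95.2 and 128 CPM in SHH tumors (0.89 ± 0.24, adjusted p = 0.0102), and the 1 that was lower, Ei24, was -0.94 ± 0.23. Mdm2, which degrades p53 and is induced by it, was 1.25 ± 0.37, and its call was lost without SHH CNS tumor 1 (adjusted p = 0.051) or 2 (0.0606). Of the 10 inhibitors and Rb family genes 5 were higher, 3 without Extracranial tumor 1 or 4 or SHH CNS tumor 1, beside 18.6% of all genes.

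Ribosome biogenesis, a process that Myc promotes, was higher in 19 of 30 genes by small amounts, with a median log2 fold change of 0.74. Pes1, a factor of large subunit assembly, had 111, 97.9, 127 and 123 CPM in extracranial tumors, against 46.8, 64.6 and 69.1 CPM in SHH tumors (0.93 ± 0.17, adjusted p = 0.000967). Gnl3, nucleostemin, had 101, 127, 165 and 134 CPM in extracranial tumors, against 42, 55.1 and 68.4 CPM in SHH tumors (1.26 ± 0.28, adjusted p = 0.00308). The count was 9 without SHH CNS tumor 1. The E-box CACGTG, the letters that Myc and Max bind, was in 8 of 25 of these genes with a promoter in the table (32.0%), against 10.5% of genes tested and 7.15% of all promoters. It was in 8.08% of promoters of genes at least 4-fold higher and 7.51% of those at least 4-fold lower. Nop2 was the 1 called gene of the list with a match before the gene start, and its window is shown 5′ to 3′ with the E-box in capitals.
Nop2, chr6:125131793-125131858, plus strand: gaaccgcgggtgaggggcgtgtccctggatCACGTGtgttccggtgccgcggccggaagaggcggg
Nop2, a nucleolar RNA methyltransferase, had 57.8, 56.9, 80.0 and 69.1 CPM in extracranial tumors, against 32.5, 37.1 and 44.6 CPM in SHH tumors (0.79 ± 0.23, adjusted p = 0.0146), and its call was lost without SHH CNS tumor 1 (0.0661) or 2 (0.0519). The motif GACCACCCA, bound by Gli factors, was in 0 of 17 Hedgehog pathway genes in these windows and in 0.253% of all promoters.

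Metabolic and stress genes were higher in smaller lists. Of 23 glycolysis and hypoxia genes 8 were higher, 5 without Extracranial tumor 2 or SHH CNS tumor 2, beside 18.6% of all genes. Ldha, which turns pyruvate to lactate, had 911, 659.8, 882 and 802 CPM in extracranial tumors, against 111, 163 and 60.8 CPM in SHH tumors (2.87 ± 0.35, adjusted p = 6.44e-05). Slc16a3, which exports lactate, had 62.2, 23.5, 5.46 and 81.6 CPM in extracranial tumors, against 1.34, 3.48 and 1.48 CPM in SHH tumors (4.36 ± 0.98, adjusted p = 0.00352), with Extracranial tumor 3 lowest of its group. Of 18 immediate early and heat shock genes 11 were higher, 7 without SHH CNS tumor 3. Ier2, which is induced within minutes of a stimulus, was 2.32 ± 0.33. Fosl1, an AP-1 subunit, had 34, 21.7, 0.507 and 25.7 CPM in extracranial tumors, against 0.18, 0.353 and 0.0679 CPM in SHH tumors (6.71 ± 1.20, adjusted p = 0.000793), and Extracranial tumor 3 stood apart from the other 3.

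Imprinted genes and oncofetal genes were called in both directions. Peg3, a maternally imprinted zinc finger gene, had 11.8, 16.1, 12.4 and 11.5 CPM in extracranial tumors, against 532, 579 and 76.2 CPM in SHH tumors (-4.93 ± 0.54, adjusted p = 3.13e-05). Snrpn, of the imprinted Prader-Willi region, had 6, 7.8, 2.39 and 3.3 CPM in extracranial tumors, against 178, 107 and 39.7 CPM in SHH tumors (-4.47 ± 0.46, adjusted p = 2.28e-05). Dlk1, a Notch-like ligand of fetal tissue, was higher, with 1040.2, 2315, 90.9 and 2129.9 CPM in extracranial tumors, against 43.7, 8.91 and 6.01 CPM in SHH tumors (6.16 ± 1.55, adjusted p = 0.00695). The fetal growth factor Igf2 overlapped between the groups (-1.01 ± 1.31, adjusted p = 0.565). Of the 20 imprinted genes 3 were higher, 1 without Extracranial tumor 2 or SHH CNS tumor 2 or 3, and 5 were lower, 3 without Extracranial tumor 1 and 2 without SHH CNS tumor 2, so these shares lie near the 18.6% and 19.7% of all genes. Of the 10 oncofetal RNA-binding and Hmga genes 3 were higher, 1 without Extracranial tumor 2 or 4 or SHH CNS tumor 1 or 2, and 3 were lower, beside the same 18.6% and 19.7% of all genes. Lin28b, which blocks the let-7 microRNAs, had 0.0488, 0.195, 0 and 0 CPM in extracranial tumors, against 11.5, 28.5 and 4.53 CPM in SHH tumors (-7.69 ± 1.26, adjusted p = 0.000434). Igf2bp3, an oncofetal RNA-binding protein, had 1.71, 0.584, 1.94 and 0.17 CPM in extracranial tumors, against 2.01, 44 and 47.3 CPM in SHH tumors (-4.83 ± 1.32, adjusted p = 0.011), and its relative Igf2bp1 was not called, with 0.0488, 1.01, 75.1 and 1.8 CPM in extracranial tumors, against 0.567, 5.97 and 4.63 CPM in SHH tumors (2.39 ± 1.76, adjusted p = 0.299). Hmga2, a chromatin protein of embryonic growth, had 2.78, 383, 1.1 and 168 CPM in extracranial tumors, against 3.12, 13.4 and 10.3 CPM in SHH tumors (3.95 ± 1.40, adjusted p = 0.0379). It was high in Extracranial tumor 2 and 4 and at SHH levels in 1 and 3, and its call was lost without Extracranial tumor 2 (adjusted p = 0.113) or 4 (0.0594) or SHH CNS tumor 1 (0.122), 2 (0.0794) or 3 (0.0901).

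Against Myc tumors, the extracranial tumors differed in few genes by the same test, which shares their libraries. None was called higher and 4 lower (0.0186% of genes tested), with 1653 higher and 1734 lower at an unadjusted p under 0.05. By DESeq2 483 were higher and 735 lower, and by limma voom none in either direction. Left out singly, the 8 libraries gave 0 to 23 genes higher and 0 to 71 lower, with 71 lower without Extracranial tumor 2, 47, 29 and 8 lower without Myc CNS tumor 2, 1 and 3, and none lower without Extracranial tumor 1 or 4. The 4 genes were Pcsk1n, an inhibitor of prohormone convertase, Ttc39a, its antisense transcript Ttc39aos1 and Gm42141. Pcsk1n had 0.0976, 0, 0.0298 and 0.034 CPM in extracranial tumors and 1.86, 25.5, 25.4 and 4.8 CPM in the Myc tumors (-8.74, adjusted p = 0.0328), and in SHH tumors it was 199, 130.5 and 20.7 CPM.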

How the data were processed

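Messenger RNA was sequenced from 17 mouse libraries with a stranded poly(A) kit, per the labels' protocols. The authors deposited 1 table of whole-number read counts per library, with 50600 Ensembl gene IDs each; reads were aligned with STAR 2.5.3a to mm10, per the submitters' processing notes. The counting tool and its strand setting are not given in the sources used here. Gene names come from a GENCODE M21 annotation of GRCm38, where 45737 IDs matched with their version and 50376 without it.

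From the counts as deposited, genes were kept by edgeR's filterByExpr with a minimum count of 10 (21494 genes, 99.96% of counts) and scaled by TMM. All 17 libraries in 5 groups entered a robust quasi-likelihood fit (edgeR 4.0.16, limma 3.58.1, R 4.3.3), so the groups share the estimate of the spread. P-values were adjusted over all genes by the Benjamini-Hochberg method and called under 0.05. Levels are TMM-scaled CPM, log2 fold changes are those of the fit, SE is the log2 fold change divided by the square root of F, and a group without counts is set at a floor of 3 counts over the group (0.0223 CPM in extracranial and 0.0177 CPM in SHH tumors). F is scaled by the spread estimated in the fit, so SE includes the spread between libraries, while floors cover counting error only. With nothing in the labels on separate animals, p-values measure the spread between these libraries, which may be partly technical. Libraries of 1 group differed by more than sampling noise, so none was treated as a second copy of another; this does not show that they are independent. The steps were checked on simulated counts.

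Named genes are the 15 largest changes in each direction, genes of the Smarcb1, Myc and Hedgehog context, members of gene lists by adjusted p, and markers of other tissues; genes outside these are said to be chosen after their values were seen, as were the osteoclast genes beside the largest changes. Some genes of these lists are counted but not reported here. The members, the gene lists and the tests were chosen with earlier results of these data known. The alternatives were DESeq2 1.42.0, limma voom, RLE size factors, other filters on low counts, the 7 libraries alone in the fit (8 in the comparison with Myc tumors), sex or file number series as a term, the replicate number as a block, and each library left out in turn, with Extracranial tumor 4 and SHH CNS tumor 1 left out together added after seeing the data.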

Additional observations from a re-analysis of the deposited data

Results flagged for a closer look

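In 14 of 198 genes tested for it, 1 extracranial tumor stood apart from the other 3 on the scale of log2(CPM + 0.5), by a gap that passed Dixon's 95% critical value for 4 libraries. Fgfr2, Cpa4, Tbx20 and Matn3 were named because 1 tumor held them, which leaves 10 of 194. A gene could be flagged only with at least 10 CPM in its highest extracranial library, but the 194 also hold genes below that. Other genes chosen after their values were seen remain among them. Chance alone gives such a gap in about 1 of 20 genes that can be flagged, so 10 of 194 cannot be set against that share. The causes were not tested. Extracranial tumor 3 was the one apart in 7 of the 14. It was low in Timp1 (3.25 CPM), Fosl1 (0.507 CPM), Fbln2 (21.9 CPM), Runx2 (8.35 CPM) and Ccl2 (31.2 CPM), and high in Matn3 (954 CPM) and Fgfr2 (591 CPM). Extracranial tumor 1 was high in Cpa4 (414 CPM) and Prl2c3 (311 CPM) and low in Col5a2 (353 CPM). Extracranial tumor 2 was high in Tbx20 (164 CPM) and Mmp10 (72.8 CPM) and low in Hoxc9 (1.15 CPM). Extracranial tumor 4 was low in Isg15 (15 CPM).

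Extracranial tumors differed from Myc tumors, by edgeR's quasi-likelihood test, in Pcsk1n (log2 fold change -8.74), Ttc39aos1 (-5.51), Gm42141 (-4.99) and Ttc39a (-4.66), lower in extracranial tumors in each. Ttc39a and Ttc39aos1 overlap, so reads of 1 may be counted for the other.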

How the results depend on the processing

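Counts of genes called were lowest with the file number series as a term, at 1027 higher and 1051 lower (762 and 897 at least 4-fold), and were 2025 and 2560 with the 7 libraries alone (1197 and 1950). Without Extracranial tumor 1 and 2 and SHH CNS tumor 1, 2161 were higher and 2717 lower (1285 at least 4-fold higher), and without Extracranial tumor 4 and SHH CNS tumor 1 2541 were higher. Leaving out 1 library gave 2688 to 4017 higher and 3461 to 4383 lower (1463 to 2113 and 2525 to 3133 at least 4-fold). Against Myc tumors the counts were 483 higher and 735 lower by DESeq2, 10 lower with RLE size factors, 0 lower with the compared groups only, with limma voom or with the replicate block, 1 lower with the file number series and 1 higher with sex as a covariate, and 0 to 23 higher and 0 to 71 lower without 1 library.

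With the replicate number as a block, 3493 genes were higher and 3746 lower than in SHH tumors (1786 and 2745 at least 4-fold). The deviations of libraries with the same number correlated at 0.0599, 0.118 and 0.16, each the highest for its number, but the labels tie the numbers to nothing, so the libraries are not treated as paired.

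Of 178 named genes called, 170 were called in the same direction by DESeq2, 177 with RLE size factors, 164 with the block, 158 by limma voom, 134 with the 7 libraries alone and 84 with the file number series. Among genes called in either fit, direction turned for Fgfr2, not called in the reported fit but called by limma voom (-6.07) and without Extracranial tumor 3 (-7.46, against 1.16 without Extracranial tumor 1), Plvap (-0.02) with the file number series, and Mbp, which ranged from -5.74 without Extracranial tumor 1 to 0.51 without SHH CNS tumor 1 and was 0.45 without Extracranial tumor 4 and SHH CNS tumor 1. Another 14 named genes, among them Smarcb1, Igf2bp1 and Matn3, turned direction under some alternative without a call in either fit. The cause was not tested. Genes near 0 in a group have log2 fold changes set largely by the prior count.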

Other observations

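Neuroendocrine genes were lower in 4 of 11 in extracranial tumors and higher in 0, also without each library in turn, beside 19.7% of all genes called lower. Summed over the list the groups overlapped, with 1540, 955, 18 and 840 CPM in extracranial tumors, against 3430, 1170 and 497 CPM in SHH tumors. Chgb, a protein of secretory granules, had 0.39, 0.331, 0.388 and 0.136 CPM in extracranial tumors, against 238, 199 and 36.9 CPM in SHH tumors (-8.98 ± 1.11, adjusted p = 6.75e-05). Its relative Chga had 1.71, 0.0195, 1.19 and 0.034 CPM in extracranial tumors, against 137, 100.5 and 11 CPM in SHH tumors (-6.86 ± 1.34, adjusted p = 0.0014). The groups did not overlap in either. Tet1, which oxidizes methylated DNA, had the smallest adjusted p among 14 genes of DNA methylation and retroelement silencing, with 0.195, 3.97, 5.52 and 1.77 CPM in extracranial tumors, against 43.4, 75.9 and 130.3 CPM in SHH tumors (-4.85 ± 0.76, adjusted p = 0.00033), and 2 of those genes were higher and 3 lower, near the 18.6% and 19.7% of all genes. Without 1 library, 1 was higher (without Extracranial tumor 1, 3 or 4 or SHH CNS tumor 1), 5 were lower (without SHH CNS tumor 1) or 1 was lower (without SHH CNS tumor 2 or 3). Hspa5, the main chaperone of the endoplasmic reticulum, was 1.14 ± 0.22, and 7 of 14 genes of the unfolded protein and integrated stress response were higher, 4 without Extracranial tumor 2 or SHH CNS tumor 2 or 3. Neutrophil genes were higher in 6 of 8 and in 1 without SHH CNS tumor 1 or 2 and 3 without Extracranial tumor 3. S100a9, a calcium-binding protein of neutrophils, had 9.56, 15.4, 18.4 and 0.238 CPM in extracranial tumors, against 0, 0.165 and 0.396 CPM in SHH tumors.

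Some genes were high in 1 extracranial tumor and low in the other 6 libraries. The genes named here were chosen after their values were seen. Cpa4, a carboxypeptidase, had 414, 0, 0.149 and 0.034 CPM in extracranial tumors, against 0.0515, 0.165 and 0.0113 CPM in SHH tumors. Tbx20, a T-box factor known from the heart, had 0.83, 164, 0.358 and 0.408 CPM in extracranial tumors, against 0.309, 0.329 and 0.0453 CPM in SHH tumors. Matn3, a cartilage matrix protein, had 0, 0.895, 954 and 0.034 CPM in extracranial tumors, against 2.19, 1.76 and 0.442 CPM in SHH tumors. The 3 genes were high in Extracranial tumor 1, 2 and 3 in that order, and the 4 Myc tumors had 12.8, 23.2, 0.803 and 1066 CPM of Matn3 and 0.383, 0.886, 132 and 0.493 CPM of Tbx20. Fgfr2, a fibroblast growth factor receptor, had 0.146, 0.74, 591 and 0.51 CPM in extracranial tumors, against 123, 87.9 and 46.2 CPM in SHH tumors, so Extracranial tumor 3 lay above all SHH tumors and the other 3 extracranial tumors below them.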
